A study of Mus musculus with 133 samples.

Results

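Gene expression in hepatocytes of young female (YF) mice was compared between partial hepatectomy (PH) and sham surgery, both at 96 h after the operation, over all genes of the table. The libraries were chosen by their titles: 3 PH and 3 sham libraries at this time, 6 of the 133 libraries of the series, with 2 further sham libraries marked X in their titles left out. All animals were wild-type C57BL/6 mice of 11 to 14 weeks. In PH the left and median lobes were removed, whereas sham animals received only an abdominal midline incision and suture, and hepatocytes were then isolated from the liver by 2-step collagenase digestion. The labels give the time as 4 days, which is 96 h. The question was which hepatocyte transcripts still differed from sham at 96 h, and whether these differences were those seen at 52 h, in young males (YM) or in very old females (VOF, 100 weeks).

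After PH the remaining hepatocytes, which are otherwise quiescent, leave G0 under cytokine and growth factor signals, copy their DNA, and divide until liver mass is restored. Progress through S phase depends on E2F targets such as the MCM helicase and PCNA, and mitosis on a later set of genes including cyclin B, CDK1, kinesins and cytokinesis proteins. While they divide, hepatocytes go on with their metabolic work, part of which is set by sex through the pituitary growth hormone pattern and part by the circadian clock.

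CEL-seq2 counts the 3′ ends of transcripts with molecular identifiers. Total counts ranged from 465547 in sham 2 to 2599022 in PH 1, and each of the 6 libraries held a count for 9990 to 10923 of the 11049 genes. PH 1, PH 2, sham 1 and sham 2 belonged to mix 4 of the labels, and PH 3 and sham 3 to mix 19. The labels do not say that the libraries of a group came from separate mice, so p-values measure the spread between libraries within groups. For PH against sham in YF, that spread was estimated over all 16 unmarked YF libraries and not these 6 alone. CPM are the count as a share of the TMM-scaled library total, put on the same base for every library of a fit. Xist, the transcript of the inactive X chromosome, was at 498, 500 and 141 CPM in PH 1 to 3. In sham 1 to 3 it was at 542, 616 and 190 CPM, and the lower values of both groups were those of mix 19. The Y-linked Ddx3y had no count in 5 of the 6 libraries and 1 count in sham 3. Alb, the major plasma protein and a hepatocyte marker, was at 5803, 7725 and 8481 CPM in PH and at 7679, 11547 and 7230 CPM in sham. In a principal component analysis of the 12 PH and sham libraries at 52 and 96 h, sham 2, the shallowest of the 6, lay away from the other sham libraries on the second component (-19.92, against 3.43 in sham 1 and -0.68 in sham 3) and near the value of the PH libraries at 96 h (-30.09 to -17.4).

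**Figure D1:**
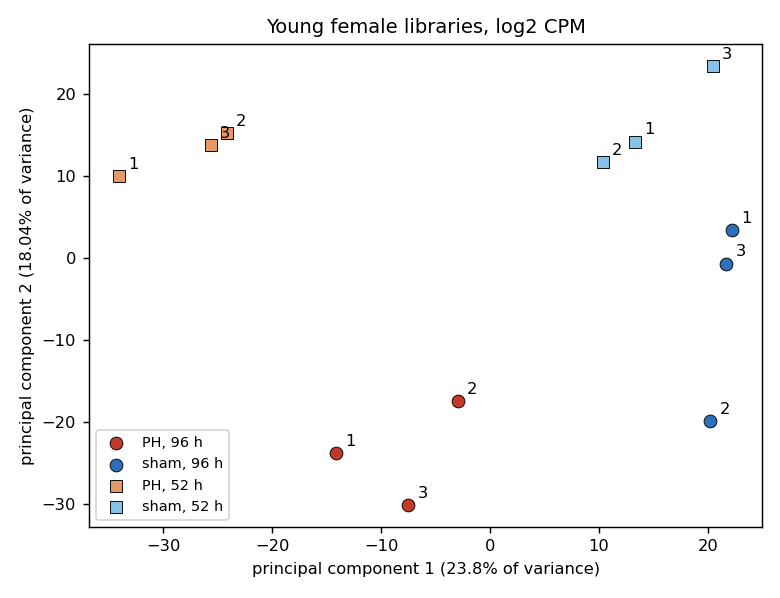
Principal components of log2 CPM in the 12 young female PH and sham libraries at 52 h and 96 h, each axis with its percent of the variance; numbers beside points are replicate numbers. PH libraries lie to the left of sham libraries on the first component at both times, and sham 2 at 96 h lies low on the second component, at -19.92.

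Of 11040 genes tested, 280 (2.54%) were higher and 89 (0.806%) lower after PH than after sham at 96 h, at an adjusted p under 0.1 in edgeR's quasi-likelihood test with Benjamini-Hochberg adjustment and at least a 2-fold change. The 3 PH and 3 sham libraries did not overlap for 245 of the genes called higher and 71 of those called lower; over all genes tested, the groups did not overlap with PH higher for 11.5% and with PH lower for 9.24%, and 5738 had a positive and 5290 a negative log2 fold change. All 89 genes called lower were also lower in PH 3 than in sham 3, the mix 19 pair. Of the 280 called higher, 278 were higher in that pair. Both libraries were part of the fit that made these calls, so this agreement is no separate test of them. The number of calls moved with single libraries: without sham 1 it was 81 higher and 31 lower, without PH 1 it was 152 and 37, without sham 3 it was 215 and 55, and without sham 2 it was 373 and 122. DESeq2 called 140 higher and 59 lower, and a fit of the 6 libraries alone, without the other YF libraries in the estimate of spread, 184 and 68.

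**Figure D2:**
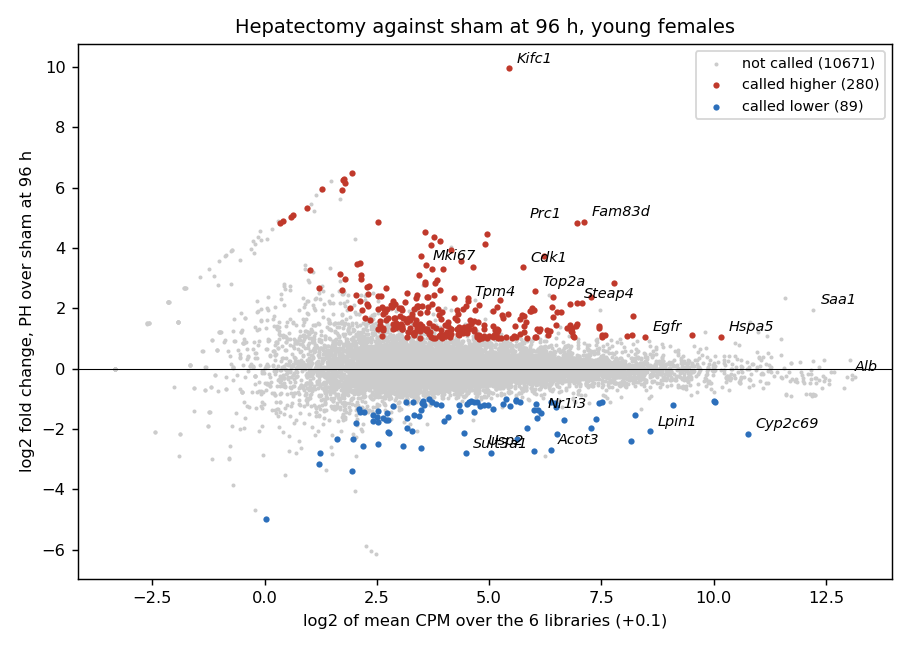
Log2 fold change of PH over sham at 96 h against the log2 of the mean CPM over the 6 libraries plus 0.1, one point per tested gene; red, 280 called higher; blue, 89 called lower; grey, not called. Kifc1 stands at the top because it had no count in the 3 sham libraries, so its fold change is not bounded above by the data.

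Genes of mitosis were higher after PH. Of the 46 tested genes on the list for G2 and mitosis, 22 rose after PH, none fell and 45 had a positive log2 fold change, against 2.54% of all genes called higher. Their median log2 fold change was 2.36 (2.11 with the genes that had no count in sham set to their lower bound), against 0.021 for all genes tested. The summed level of the list was 2433, 1203 and 1798 CPM in PH 1 to 3 and 527, 854 and 551 CPM in sham 1 to 3. Every PH library was above every sham library, with sham 2 the highest sham and PH 2 the lowest PH library. The count of 22 fell to 7 without sham 1, 11 without PH 1 and 9 in the mix 4 libraries alone, and was 13 in DESeq2; it was 24 without sham 2.

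Promoter sequences are shown for 7 of the mitotic and cytokinesis genes that rose, because promoters of this class are known for CCAAT boxes and for the cell cycle homology region TTTGAA, at which the DREAM and MuvB complexes act. The 7 were picked after the search, from risers with CCAAT in these bases; the same stretch of Bub1b and Sgo2a held neither and that of Mki67 only TTTGAA. Each line gives the 100 bases before the RefSeq gene start (GRCm38.p6; for Prc1 the second of its starts), written 5′ to 3′ along the gene, with CCAAT and TTTGAA in capitals on either strand (ATTGG and TTCAAA on the other strand):
Cdk1 (chr10:69352913-69353012, minus strand): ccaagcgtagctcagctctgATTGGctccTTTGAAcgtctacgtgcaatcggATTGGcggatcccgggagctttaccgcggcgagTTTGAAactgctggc
Top2a (chr11:99024190-99024289, minus strand): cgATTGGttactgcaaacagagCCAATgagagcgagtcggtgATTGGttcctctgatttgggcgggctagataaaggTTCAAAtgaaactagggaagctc
Prc1 (chr7:80294376-80294475, plus strand): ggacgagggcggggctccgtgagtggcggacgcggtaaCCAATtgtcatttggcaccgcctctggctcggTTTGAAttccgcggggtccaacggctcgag
Racgap1 (chr15:99651657-99651756, minus strand): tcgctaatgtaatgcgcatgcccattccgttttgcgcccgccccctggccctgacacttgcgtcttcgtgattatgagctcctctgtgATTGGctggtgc
Kifc1 (chr17:33890634-33890733, minus strand): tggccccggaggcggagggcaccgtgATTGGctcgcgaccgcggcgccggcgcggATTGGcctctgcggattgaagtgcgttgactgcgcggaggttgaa
Fam83d (chr2:158767999-158768098, plus strand): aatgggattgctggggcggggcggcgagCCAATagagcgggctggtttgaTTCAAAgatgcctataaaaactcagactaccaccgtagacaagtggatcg
Diaph3 (chr14:87141225-87141324, minus strand): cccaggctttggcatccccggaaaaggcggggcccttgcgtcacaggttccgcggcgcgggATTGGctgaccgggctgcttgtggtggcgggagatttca

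The Cdk1 stretch holds CCAAT and TTTGAA on more than 1 occasion each, while those of Kifc1, Racgap1 and Diaph3 hold CCAAT without TTTGAA. RefSeq promoter windows were matched for 18 of the 22 mitotic genes that rose, and 250 bases before the start were searched on both strands. CCAAT was found for 15 of them (83.3%), against 41% of the 7892 tested genes with a window and 37.5% of all 27025 genes in the promoter table. TTTGAA was found for 6 (33.3%), against 13.3% of tested genes and 18.3% of all genes; these were Prc1, Mki67, Cdk1, Top2a, Ect2 and Ccnb2, all of which also held CCAAT, as did 5.03% of tested genes. The E2F letters TTTCGCGC were found for Cdk1 alone among the 18 and TTTGGCGC for none, with 0.621% and 1.01% of tested genes holding them. These are matches of letters and not measured binding.

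Kifc1, a minus-end kinesin of the spindle (chr17:33875659-33890661, GRCm38), was at 125, 59.8 and 74.8 CPM in PH 1 to 3 and had no count in any of the 3 sham libraries. It was at least 22.4-fold higher after PH, taking 3 counts in each sham library as the limit (adjusted p = 7.03e-05, edgeR). Such limits, and the counting intervals of low genes, take the batch-corrected values as if they were counted molecules. The sham libraries marked X held 11.4 and 9.19 CPM of Kifc1, and with them added the log2 fold change was 3.89 ± 0.46 (SE). Kifc1 has a near-identical copy, Kifc5b, so its counts are uncertain.

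Fam83d, which brings casein kinase 1 to the spindle (chr2:158768093-158786637), was at 284, 256 and 272 CPM in PH and at 17.3, 0 and 0 CPM in sham, with the PH libraries close together. Its log2 fold change was 4.87 ± 0.57 (SE, n = 3 and 3; adjusted p = 0.00027, edgeR). Prc1, a midzone protein that bundles microtubules in anaphase (chr7:80294450-80316259), was at 373, 152 and 184 CPM in PH and at 8.12, 25.7 and 0 CPM in sham (log2 fold change 4.83 ± 0.71). Kif20a, a kinesin of cytokinesis, was at 83.2, 33.3 and 63 CPM in PH and at 4.57, 0 and 0 CPM in sham (4.48 ± 0.74). All 4 genes were higher in each PH library than in any sham library, and PH 2 was the lowest PH library for each.

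The cytokinesis genes Racgap1, a GTPase-activating protein of the midzone, and Diaph3, a formin, rose by 4.37 ± 0.66 and 4.23 ± 0.54 on the log2 scale. Racgap1 was at 36.9, 22.1 and 17.7 CPM in PH and at 0, 0 and 4.11 CPM in sham. Sgo2a, the shugoshin that protects centromeric cohesion, was at 24.5, 22.9 and 20.7 CPM in PH with only 3 counts over the 3 sham libraries, a ratio of 26.1 (95% interval 8.75 to 128, counting error only). Ccnb1, the mitotic cyclin, was low throughout, at 19.2, 4.01 and 9.84 CPM in PH with 1 count in sham, a ratio of 38.9 (6.75 to 1556). Bub1b, the spindle checkpoint kinase, had no count in sham and was at least 1.7-fold higher. Their rank among the risers thus rests on very few sham counts.

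Cdk1, the kinase that drives entry into mitosis, was at 138, 45.3 and 101 CPM in PH and at 7.61, 32.7 and 0 CPM in sham (log2 fold change 3.37 ± 0.56, adjusted p = 0.00266, edgeR). Top2a, the topoisomerase that untangles sister chromatids, was at 139, 68.2 and 117 CPM in PH and at 13.7, 37.3 and 14.4 CPM in sham (2.57 ± 0.39, adjusted p = 0.00139, edgeR). Mki67, which coats mitotic chromosomes and is the common marker of proliferation, was at 33.1, 8.43 and 19.7 CPM in PH and at 1.01, 9.34 and 0 CPM in sham (3.44 ± 0.78, adjusted p = 0.0197, edgeR). For these 3 genes sham 2 was the highest sham library and PH 2 the lowest PH library, and for Mki67 the groups overlapped.

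Genes of S phase moved less. Of 38 tested genes for S phase and DNA replication, 4 rose and none fell, against 2.54% of all genes called higher. The list median was 0.45, and 31 genes had a positive log2 fold change. Summed levels were 561 to 650 CPM in PH and 424 to 514 CPM in sham. Those that rose were Mcm6, a helicase subunit (14.7, 12.4 and 12.8 CPM in PH and 3.55, 2.33 and 3.08 CPM in sham; log2 fold change 2.02 ± 0.53), Asf1b, a histone chaperone (1.88 ± 0.32), E2f1, the transcription factor of the G1/S genes (1.41 ± 0.30), and Rrm2, the ribonucleotide reductase subunit (1.02 ± 0.31, adjusted p = 0.0864, edgeR). Pcna, the polymerase clamp, was at 99, 90.7 and 79.7 CPM in PH and at 45.2, 72.4 and 59.5 CPM in sham; with a log2 fold change of 0.69 ± 0.22 it passed the adjusted p (0.0908, edgeR) but not the 2-fold limit. The count of 4 was 1 without sham 1, 2 without PH 1 or sham 3 and 6 without sham 2. Mcm2 was at 5.62 to 6.78 CPM in PH and 0 to 7 CPM in sham, and did not pass (adjusted p = 0.213, edgeR).

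None of the 20 tested genes for G1 cyclins, CDK inhibitors and p53 targets was called (median log2 fold change 0.29). Ccnd1, the G1 cyclin that growth factors induce, was at 77.6, 131 and 134 CPM in PH and at 110, 86.4 and 87.2 CPM in sham, overlapping groups with a log2 fold change of 0.24 ± 0.27. Cdkn1a, the p21 inhibitor, spread widely in both groups, at 201, 44.9 and 164 CPM in PH and 9.13, 173 and 61.6 CPM in sham (1.07 ± 0.67, adjusted p = 0.457, edgeR). Gadd45g and Trp53inp1, the 2 most abundant members of that list, had log2 fold changes of 0.57 and -0.18. None of 10 tested DNA damage response genes was called (median 0.10). Rad50, which acts on broken DNA ends, had a log2 fold change of 0.52 ± 0.46.

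**Figure D3:**
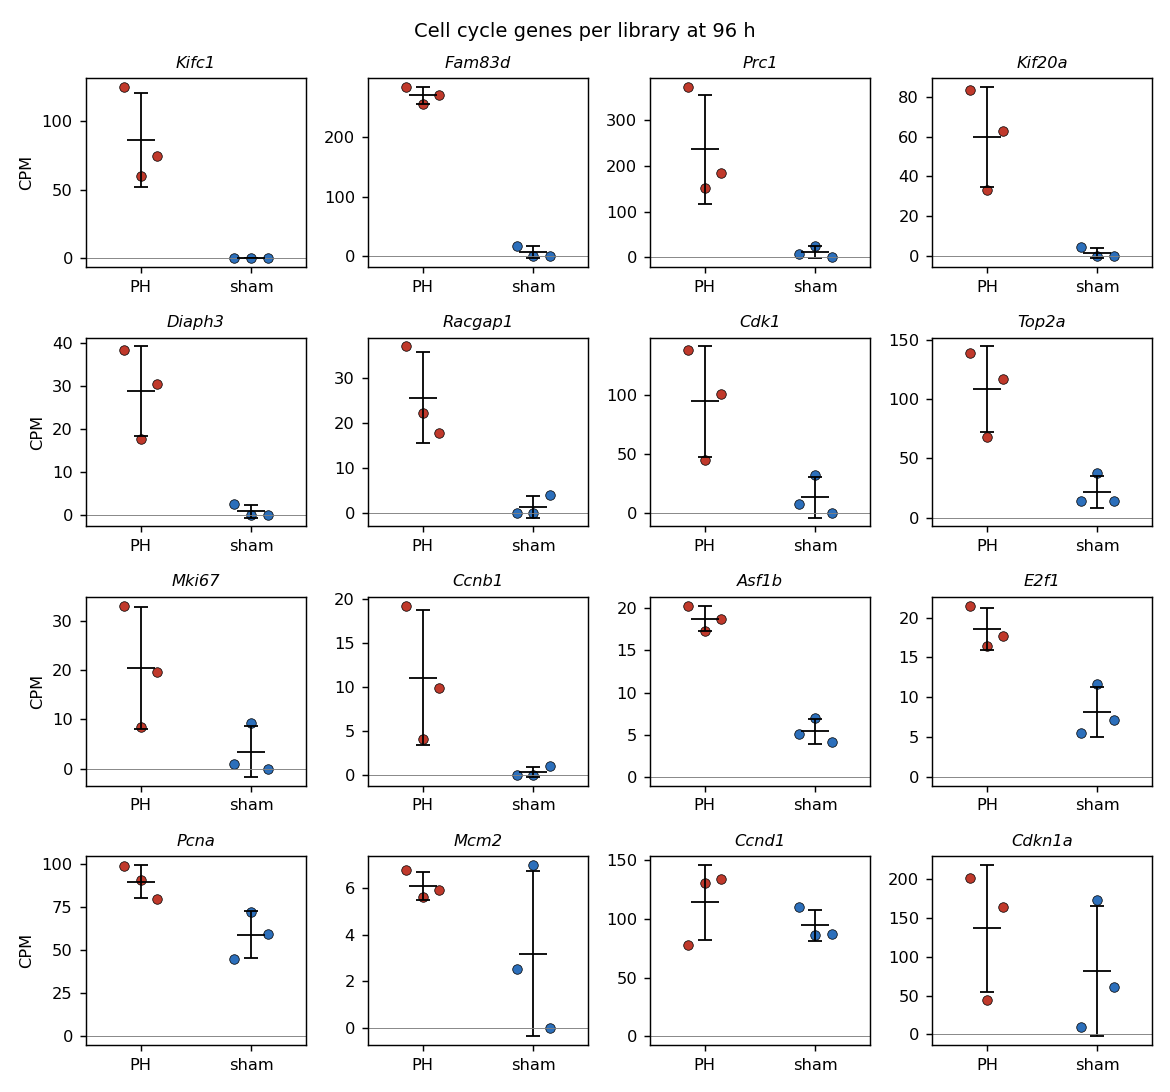
Level in CPM of 16 cell cycle genes in each of the 3 PH (red) and 3 sham (blue) libraries at 96 h, with a separate linear axis for each gene; bars show the mean and SD. Mitotic genes from Kifc1 to Top2a lie higher in all PH than in all sham libraries, whereas Mcm2, Ccnd1 and Cdkn1a overlap.

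Of 35 tested growth factors, receptors and feedback genes, 4 rose and none fell, where 2.54% of all genes were called higher. The median log2 fold change of the list was -0.14. Egfr, the receptor for EGF family ligands, was at 515, 436 and 483 CPM in PH and at 151, 301 and 252 CPM in sham (log2 fold change 1.06 ± 0.21, adjusted p = 0.00964, edgeR). Osmr, the oncostatin M receptor, was at 11.3, 6.42 and 7.88 CPM in PH and at 1.52, 0 and 2.05 CPM in sham (2.49 ± 0.55). Socs3, which restrains signalling through STAT3, was at 45.6, 24.5 and 40.4 CPM in PH and at 3.04, 28 and 11.3 CPM in sham (1.94 ± 0.57, adjusted p = 0.0729, edgeR), and sham 2 lay within the PH range. Smad7, the inhibitor of TGF-β signalling, had so few counts in sham that only a ratio can be given, of 7.39 (95% interval 1.86 to 64.1). The count of 4 was 0 without sham 1, 1 without PH 1, 2 without sham 3 and 1 in DESeq2. Of 25 immediate early and stress genes, Ier5 (1.79 ± 0.42) and Fosl2, an AP-1 subunit (1.62 ± 0.46), rose; neither was called without sham 1. Igfbp1, a hepatic binding protein for insulin-like growth factors, was at 68.5, 86.7 and 82.7 CPM in PH and at 54.8, 331 and 73.9 CPM in sham and was not called, the high value being that of sham 2.

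Of 44 tested acute phase and complement genes, 5 rose and none fell, against 2.54% of all genes called higher. The list median was 0.40, and 37 genes had a positive log2 fold change. Steap4, a metalloreductase induced by inflammatory cytokines, was at 251, 136 and 211 CPM in PH and at 27.9, 72.4 and 47.2 CPM in sham (log2 fold change 2.17 ± 0.37, adjusted p = 0.00288, edgeR). Il1r1, the receptor for interleukin 1, was at 36.5, 23.3 and 30.5 CPM in PH and at 6.6, 11.7 and 8.21 CPM in sham (1.93 ± 0.30). Apcs, the serum amyloid P component, was at 587, 336 and 431 CPM in PH and at 83.2, 205 and 133 CPM in sham (1.75 ± 0.35). Serpina3n and Saa4 rose by 1.12 ± 0.31 and 1.12 ± 0.27 on the log2 scale. Saa1, a major acute phase protein, was at 11685, 3975 and 7071 CPM in PH and at 527, 3350 and 1993 CPM in sham; the groups did not overlap, but the spread within them was wide and it was not called (1.96 ± 1.04, adjusted p = 0.358, edgeR). The summed level of this list was 93632, 55655 and 77868 CPM in PH and 41124, 63321 and 49083 CPM in sham, so that sham 2 exceeded PH 2. The count of 5 was 3 without PH 1 or sham 3 and 8 without PH 2 or sham 2.

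The endoplasmic reticulum (ER) folds secreted proteins. Of 30 tested genes for the unfolded protein response and ER protein processing, 7 rose and none fell, against 2.54% of all genes called higher. The list median was 0.69, and 26 genes had a positive log2 fold change. Creld2, an ER protein induced by unfolded proteins, was at 290, 140 and 99.4 CPM in PH and at 16.7, 58.4 and 60.6 CPM in sham (log2 fold change 2.15 ± 0.43, adjusted p = 0.00953, edgeR). Pdia4, a disulfide isomerase, was at 32, 50.2 and 28.5 CPM in PH and at 8.12, 11.7 and 20.5 CPM in sham (1.58 ± 0.30). Xbp1, the transcription factor of this response, was at 132, 105 and 107 CPM in PH and at 52.3, 60.7 and 35.9 CPM in sham (1.25 ± 0.27). Ddit3, the stress transcription factor CHOP, and Manf, a secreted ER protein, rose by 2.08 ± 0.55 and 1.46 ± 0.37. Hspa5, the chaperone BiP and the most abundant of the 7, was at 1558 ± 528 CPM in PH and 753 ± 280 CPM in sham (SD, n = 3 each; 1.06 ± 0.26). The count of 7 was 2 without sham 1, 3 without PH 1 and 10 without sham 2.

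Of 26 tested genes for cytoskeleton and adhesion, 7 rose and none fell, where 2.54% of all genes were called higher. The list median was 0.80, and 25 genes had a positive log2 fold change. Tpm4, a tropomyosin, was nearly equal in the 3 PH libraries, at 36.5, 36.1 and 36.4 CPM, and was at 5.58, 14 and 8.21 CPM in sham (log2 fold change 2.24 ± 0.28, adjusted p = 0.000302, edgeR). Tagln2, an actin-binding protein, was at 142, 121 and 139 CPM in PH and at 51.3, 23.3 and 38 CPM in sham (1.71 ± 0.23). S100a11 rose by 1.92 ± 0.25, Pfn1, the actin monomer binding profilin, by 1.78 ± 0.43, and Anxa2 by 1.49 ± 0.29. The count of 7 was 4 without sham 1. Of 14 tested fetal and oncofetal liver genes, 4 rose, namely Prom1 (1.97 ± 0.48), Anxa2, Sox9, a transcription factor of bile duct and progenitor cells (1.46 ± 0.32), and Lgals1 (1.42 ± 0.39), with a median of 1.07 over the list. None of the 4 was called without sham 1, and 1 was without PH 1. Afp, the classical fetal liver protein, was not in the table used here.

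Several of these genes are also expressed outside hepatocytes, and markers of other liver cells were read beside them. Over all genes, 2.54% were called higher. All 13 Kupffer cell and macrophage markers tested had a positive log2 fold change (median 0.34), with summed levels of 1322 to 1680 CPM in PH and 971 to 1236 CPM in sham, and 1 was called: Marco, a scavenger receptor of Kupffer cells, at 25.2, 38.5 and 20.7 CPM in PH and 8.12, 9.34 and 10.3 CPM in sham (1.69 ± 0.34). Of 9 stellate cell and fibroblast markers, Col1a2 (1.78 ± 0.35) and Col3a1 (1.42 ± 0.35), both fibrillar collagens, rose (no marker of this list was called without sham 1), and the summed levels were 209 to 250 CPM in PH and 152 to 198 CPM in sham. The 11 endothelial markers summed to 516 to 562 CPM in PH and 440 to 502 CPM in sham with none called; the most abundant, Clec4g and Dnase1l3, had log2 fold changes of 0.17 and 0.03. Of the cholangiocyte markers only Sox9 and Spp1 were tested (summed 77.4 to 192 CPM in PH and 29.9 to 66.7 CPM in sham). Of the erythroid markers Hbb-bs and Hba-a1 had 0.34 and -0.25, of the lymphocyte markers only Ighm was tested, with 0 to 3.77 CPM, and no neutrophil or mesothelial marker was in the table used here. The 10 hepatocyte markers summed to 30247 to 36493 CPM in PH and 33591 to 45474 CPM in sham, with Alb at -0.27. Ahsg, a plasma protein gene outside this list, was at -0.29. The part of other cells in the rises above was not tested, and in a bulk sample more cells of a type and more RNA per cell, or fewer and less, cannot be told apart.

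In further lists only 1 or 2 members were called higher, where 2.54% of all genes were. The list medians were 0.12 for NRF2 targets, 0.09 for interferon genes, 0.07 for nucleotide synthesis and -0.02 for glycolysis. Those of the bile acid and pericentral lists were -0.34 and -0.49. The calls are therefore of single genes and not of whole lists. Hmox1, heme oxygenase, was at 118, 54.2 and 80.7 CPM in PH and at 27.9, 25.7 and 32.8 CPM in sham (log2 fold change 1.54 ± 0.25), and with Osgin1 (1.35 ± 0.28) it made up the 2 that rose of 21 tested NRF2 targets. Pkm, pyruvate kinase M, rose by 1.31 ± 0.25 among 22 genes of glycolysis and the pentose phosphate pathway. Psat1, of serine synthesis, was at 31.3, 17.3 and 20.7 CPM in PH and at 2.54, 0 and 9.24 CPM in sham (2.45 ± 0.44), the only call among 27 genes for nucleotide and polyamine synthesis. Ifi27l2b (1.32 ± 0.28) was the only call among 32 interferon response and antigen presentation genes. Slc51b, a bile acid exporter subunit of the basolateral membrane, rose by 2.00 ± 0.61 from few counts, and Slc13a3, a dicarboxylate transporter on the pericentral list, by 1.30 ± 0.32.

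Genes known to be higher in female than in male liver were mostly lower after PH. Of 32 tested female-biased genes, 10 fell and 2 rose (Prom1 and Lpl), and 27 had a negative log2 fold change, against 0.806% of all genes called lower. The median was -0.90. The summed level of the list was 3952, 5569 and 4155 CPM in PH and 9255, 10536 and 9124 CPM in sham, with no overlap, and in the sham libraries marked X it was 9867 and 10267 CPM. The count of 10 was 6 without sham 1 and 6 without PH 1.

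Sult3a1, a sulfotransferase, showed the largest fall named here, at 5.27, 8.02 and 0.984 CPM in PH and 30.4, 32.7 and 55.4 CPM in sham (log2 fold change -2.80 ± 0.57, adjusted p = 0.00964, edgeR). Acot3, a peroxisomal acyl-CoA thioesterase (chr12:84052144-84060402), was at 9.79, 33.3 and 29.5 CPM in PH and at 243, 70 and 114 CPM in sham (-2.69 ± 0.46). Cyp2c69, a female-predominant P450 (chr19:39842814-39886799), was at 357, 1019 and 533 CPM in PH and at 1821, 3555 and 3173 CPM in sham (-2.16 ± 0.38, adjusted p = 0.00308, edgeR). Cyp2b9 was at 37.3, 40.1 and 39.4 CPM in PH and at 124, 63 and 104 CPM in sham (-1.38 ± 0.21). The flavin monooxygenase Fmo2 fell by 2.14 on the log2 scale. Cux2, a repressor of male-biased genes in female liver, fell by 1.56 ± 0.40. Of 32 tested male-biased genes, Nat8 (1.67 ± 0.45), Cyp2d9 (1.35 ± 0.24) and Egfr rose and Mup21 (-1.45 ± 0.43) and Cyp2u1 (-1.21 ± 0.34) fell, with a median of 0.03. The summed level of this list was also lower in every PH library, at 27198, 30397 and 33728 CPM in PH and 37662, 56055 and 40078 CPM in sham. Neither fall was called without sham 1, PH 1, PH 3 or sham 3. Over all genes, 2.54% were called higher and 0.806% lower.

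These genes overlap with drug metabolism, on which 12 of 74 tested genes fell and 2 rose. Over all genes, 0.806% were called lower and 2.54% higher. On the list 55 had a negative log2 fold change (median -0.38). The count of 12 was 7 without sham 1 and 8 without PH 1 or PH 3. Besides those above, Cyp2a5, the coumarin hydroxylase, was at 7.53, 27.7 and 17.7 CPM in PH and at 133, 25.7 and 82.1 CPM in sham (-2.34 ± 0.49), with sham 2 within the PH range. Cyp2c37 was at 261, 382 and 354 CPM in PH and at 920, 773 and 596 CPM in sham (log2 fold change -1.20 ± 0.24). Nr1i3, the nuclear receptor CAR that induces many of these enzymes, was at 34.6, 34.5 and 47.3 CPM in PH and at 138, 91 and 80 CPM in sham (-1.48 ± 0.22, adjusted p = 0.00118, edgeR). Cyp2c55 went the other way, at 9.04, 28.5 and 21.7 CPM in PH and 2.54, 7 and 4.11 CPM in sham (2.38 ± 0.50). Members of the Cyp2a, Cyp2c and Mup families are near-identical in sequence, and their counts may be split between copies. Of 30 tested pericentral genes, Cyp2a5 and Cyp2c37 fell and 25 had a negative log2 fold change (median -0.49); of 30 periportal genes Serpina12 fell (-1.12 ± 0.35), Sox9 rose and the median was -0.10.

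Few lipid genes were called. Lpin1, the phosphatidate phosphatase of triglyceride synthesis (chr12:16535669-16610966), was at 146, 126 and 173 CPM in PH and at 630, 558 and 670 CPM in sham (log2 fold change -2.07 ± 0.35, adjusted p = 0.00279, edgeR). Thrsp, a lipogenic nuclear protein, was at 86.6, 93.9 and 65 CPM in PH and at 383, 91 and 285 CPM in sham (-1.67 ± 0.40), with sham 2 within the PH range. These were the 2 calls among 23 tested genes of lipogenesis and lipid droplets (median -0.17), where 0.806% of all genes were called lower. Of the 23, 14 had a negative and 9 a positive log2 fold change. The summed level of this list was lower in every PH library, at 6637, 7725 and 7068 CPM in PH and 8913, 9358 and 9156 CPM in sham. The 25 tested genes for cholesterol synthesis and SREBP2 targets had a median of -0.28, and Sqle, squalene epoxidase, was at 67, 89.1 and 42.3 CPM in PH and at 66, 51.4 and 80 CPM in sham (0.01 ± 0.34). Abcg8, a sterol exporter, fell by 1.71 ± 0.30 among 26 genes of bile acid synthesis and transport (median -0.34). Cyp7a1, the rate-limiting enzyme of bile acid synthesis, was at 16.6, 181 and 87.6 CPM in PH and at 296, 147 and 164 CPM in sham, overlapping groups that were not called (-1.13 ± 0.52, adjusted p = 0.275, edgeR).

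Of 20 tested circadian clock genes, 3 fell and 1 rose, with a median of -0.60. Over all genes, 0.806% were called lower and 2.54% higher. Usp2, a rhythmic ubiquitin protease, was at 11.7, 17.7 and 31.5 CPM in PH and at 218, 2.33 and 104 CPM in sham (log2 fold change -2.72 ± 0.70). Ciart, a repressor of the clock, was at 1.51, 12.4 and 18.7 CPM in PH and at 100, 7 and 56.4 CPM in sham (-2.78 ± 0.80, adjusted p = 0.0681, edgeR). In both, sham 2 was as low as the PH libraries, far from the other sham libraries. Cry2 fell by 1.18 ± 0.29 and Clock rose by 1.06 ± 0.29. Noct, a rhythmic phosphatase that is not on the list, was at 64, 49.8 and 83.7 CPM in PH and at 373, 128 and 227 CPM in sham (-1.96 ± 0.32). No clock list gene was called without sham 1 or without PH 1, DESeq2 called none lower, and the summed level of the list was 682 to 1072 CPM in PH and 649 to 1599 CPM in sham.

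The other large falls were Cpsf4l (-2.64 ± 0.43), Pou3f2, a POU transcription factor of neural tissue (-1.97 ± 0.43, from 10.1 to 18.7 CPM in sham to 2.81 to 3.94 CPM in PH), and 3 noncoding transcripts, Gm16573 (-2.55 ± 0.69), Gm13775 (-2.16 ± 0.34) and Gm816 (-2.05 ± 0.60). Gm16573 is annotated as antisense, and the strand used in counting is not given in the sources used here. Among the large rises, Pclaf, a PCNA-binding protein, was at 18.5, 26.1 and 23.6 CPM in PH and at 0, 9.34 and 0 CPM in sham (4.11 ± 0.64), and Gm10232, a processed pseudogene, was at 52, 45.7 and 60 CPM in PH and at 0, 21 and 0 CPM in sham (4.15 ± 0.64). Counts of a pseudogene can hold reads of its parent gene.

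Several groups had no call, where 2.54% of all genes were called higher and 0.806% lower. None of 51 cytosolic ribosomal protein genes (median log2 fold change 0.01), 32 genes for ribosome biogenesis (-0.00), 58 for oxidative phosphorylation (-0.06), 46 for plasma proteins and coagulation (-0.16), 29 for fatty acid oxidation (-0.19), 8 of the urea cycle (-0.20) or 33 for gluconeogenesis, glycogen and amino acid breakdown (-0.29) was called. In 3 of these groups the summed level was nevertheless lower in every PH library than in every sham library used. Taken singly, 9.24% of all genes tested were so, and no such share was worked out for sums over lists. Genes for gluconeogenesis, glycogen and amino acid breakdown, 27 of 33 with a negative log2 fold change, summed to 12525, 13499 and 12534 CPM in PH and 18027, 15667 and 15349 CPM in sham. Urea cycle genes summed to 6450 to 6908 CPM in PH and 7047 to 7941 CPM in sham, and plasma proteins to 86333 to 100034 CPM in PH and 101488 to 118489 CPM in sham. The sham libraries marked X held 107489 and 99708 CPM of plasma proteins, and the lower value lay below PH 3. Of the gluconeogenesis list they held 18115 and 17168 CPM and of the urea cycle list 8300 and 8278 CPM, above every PH library. The most abundant members of the groups included Rpl4 (-0.07 ± 0.17), Rps20 (-0.29), Bop1 (-0.00), Npm1 (-0.32), Uqcrq (-0.01), Uqcrfs1 (-0.19), Apoa1 (-0.40), Acaa2 (0.07), Arg1 (-0.22), Otc (-0.13), Hpd (-0.47) and Oat (-0.53). Xbp1 rose and Nr1i3 fell among 30 hepatocyte transcription factors, whose median was -0.05.

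**Figure D4:**
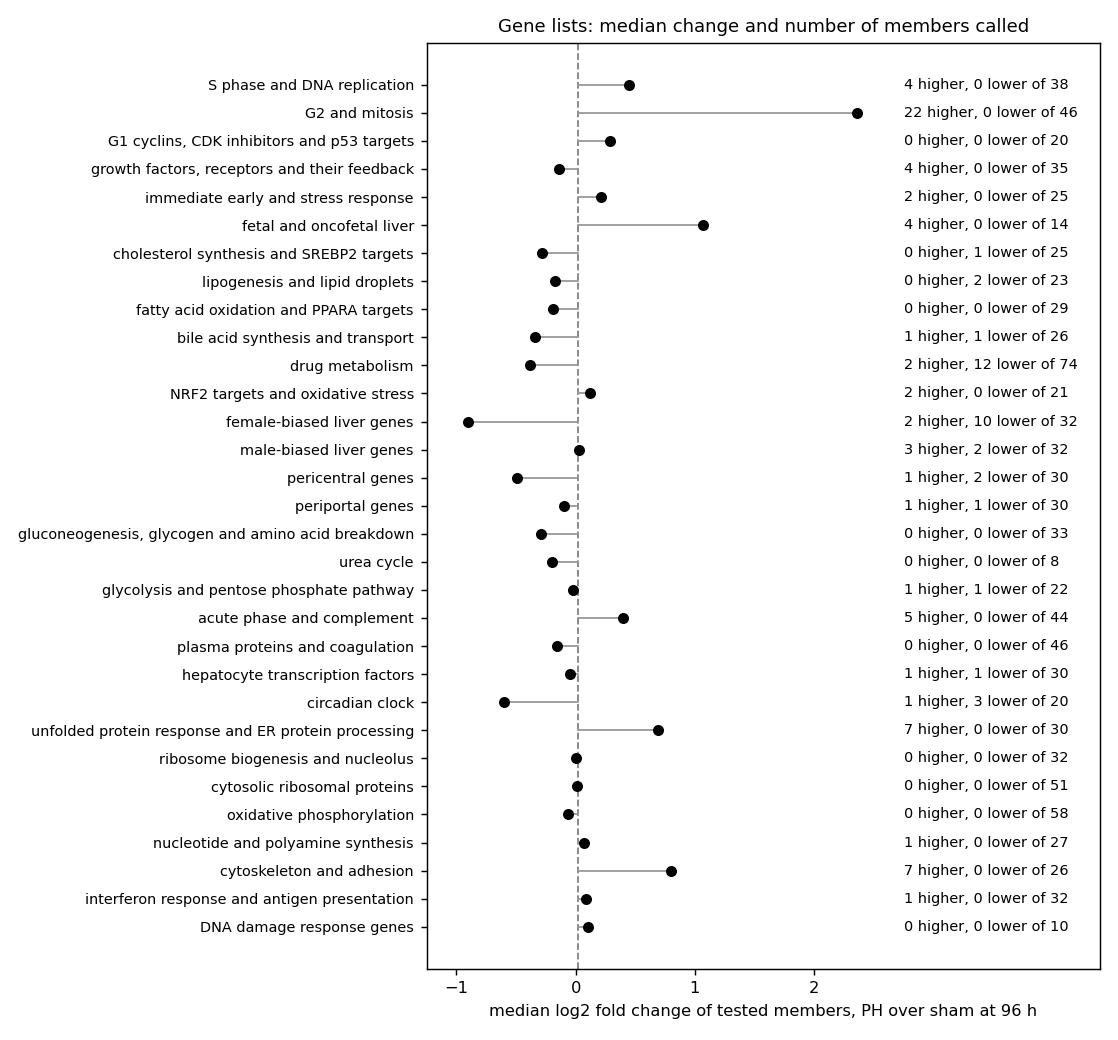
Median log2 fold change of PH over sham at 96 h for the tested members of 31 gene lists, with the median of all genes as a dashed line and the number of members called at the right. G2 and mitosis lies furthest to the right, at 2.36, and female-biased liver genes furthest to the left, at -0.90.

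At 52 h, 335 genes (3.03%) were higher and 218 (1.97%) lower after PH than after sham in the same model, with separate sham libraries. The titles of these PH libraries read 52h and those of the sham libraries Sh2d. The PH libraries were in mixes 3, 3 and 18 and the sham libraries in mixes 3, 3 and 17. The part of mix in the differences between times was not tested. Of the G2 and mitosis list, 44 of 46 genes rose at 52 h and 22 at 96 h, with medians of 2.68 and 2.36. Of the S phase list, 22 of 38 rose at 52 h and 4 at 96 h, with medians of 1.45 and 0.45. Acute phase genes numbered 0 higher at 52 h and 5 at 96 h (medians -0.20 and 0.40), and ER genes 0 and 7, with 2 lower at 52 h (medians -0.04 and 0.69). Of 32 female-biased genes, 7 fell and 0 rose at 52 h (median -0.68). At 96 h 10 fell and 2 rose (median -0.90). The difference itself, the PH effect at 96 h minus that at 52 h, was called for 52 genes (0.471%), 41 larger and 11 smaller at 96 h. These held 1 gene of the S phase list, 2 of the G2 and mitosis list (both smaller at 96 h), 2 of the acute phase list and 1 of the ER list (all larger). Without sham 3, none of the 52 differences was called, and without PH 1 or PH 3 there was 1.

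Tk1, thymidine kinase of the salvage pathway, was higher after PH at 52 h (45, 36.6 and 53.2 CPM in PH and 19.3, 21.7 and 13.7 CPM in sham) but not at 96 h (13.9, 10.4 and 9.84 CPM in PH and 24.4, 11.7 and 22.6 CPM in sham), a difference of -2.12 ± 0.42 (adjusted p = 0.0667, edgeR). Suv39h1, a histone H3 methyltransferase, went from 63.3 to 70.6 CPM in PH and 22.9 to 25.9 CPM in sham at 52 h to 23.3 to 34.5 CPM and 30.3 to 38 CPM at 96 h, a difference of -1.71 ± 0.26 (adjusted p = 0.0292, edgeR). In the other direction, Syk, a tyrosine kinase of immune receptors, had log2 fold changes of -1.55 at 52 h and 2.02 at 96 h. It was at 16.9, 9.23 and 13.8 CPM in PH and at 3.55, 0 and 4.11 CPM in sham at 96 h. Alox5ap, of leukotriene synthesis, had -1.87 at 52 h and 0.67 at 96 h. Saa4 had -0.91 and 1.12, and Hmox1 -0.02 and 1.54. The macrophage marker list had medians of -0.41 at 52 h and 0.34 at 96 h, and its part in the values of Syk and Alox5ap was not tested.

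**Figure D5:**
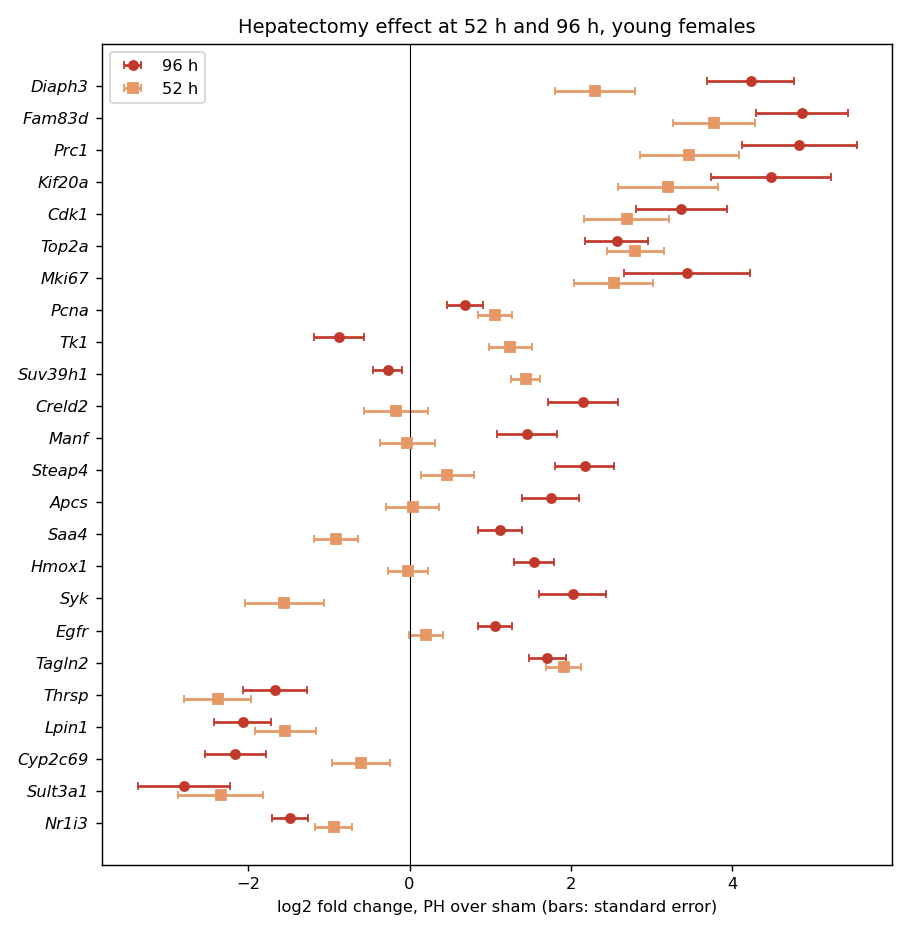
Log2 fold change of PH over sham at 96 h (red circles) and 52 h (orange squares) with standard errors for 24 genes. Mitotic genes from Diaph3 to Mki67 are right of 0 at both times, Tk1 and Suv39h1 are right of 0 only at 52 h, and Creld2, Manf, Apcs, Saa4, Hmox1 and Syk are right of 0 at 96 h and at 0.04 or below at 52 h.

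For sex and age, the PH and sham libraries of YF, YM and VOF at 96 h were fitted together, 3 per group. In YM the PH libraries were in mixes 15, 21 and 21 and the sham libraries in 19, 21 and 21. In VOF they were in mixes 6, 6 and 22 and in 6, 6 and 15. Mix thus differed between the compared groups, and its part in these differences was not tested. No gene was called for a different PH effect in YF than in YM by edgeR, with 961 of 11046 genes at an unadjusted p under 0.05, and DESeq2 called 17. In YM 2.62% of all genes were higher and 1.62% lower after PH. Of the G2 and mitosis list 25 genes rose in YM, with a median of 2.43. The median of the female-biased list was 0.49 in YM, and that of the male-biased list was -0.62, with 7 of its genes called lower. None of these members was called for a difference between the sexes.

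A different PH effect in YF than in VOF was called for 21 genes (0.190%), 14 larger and 7 smaller in YF. In VOF 3.10% of all genes were higher and 1.86% lower after PH. Of the G2 and mitosis list 41 genes rose in VOF (median 3.15) and of the S phase list 21 (median 1.38), without a called difference for a member of either. Of the female-biased list 5 genes fell and 3 rose in VOF (median -0.77). The PH effect was called smaller in YF for 1 member of that list. Cyp3a11, a major drug-metabolising P450, was at 1288, 1706 and 1933 CPM in PH and 971, 1587 and 1118 CPM in sham of YF, and at 1101, 607 and 1040 CPM in PH and 93.8, 184 and 96.4 CPM in sham of VOF, a difference of -2.45 ± 0.40 (adjusted p = 0.0137, edgeR). Etnppl, which breaks down phosphoethanolamine, had -0.88 in YF and 1.10 in VOF, a difference of -1.99 ± 0.32. Col1a2 rose in YF and had -0.62 in VOF, a difference of 2.40 ± 0.50 (adjusted p = 0.0818, edgeR).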

How the data were processed

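Counts per gene were compared between YF PH and sham at 96 h. According to the paper, the authors mapped CEL-seq2 reads to Ensembl GRCm38 with the yanailab/celseq2 pipeline, converted molecular identifier counts to transcript counts by a binomial correction, left out named genes at the identifier limit and low-expression genes, and corrected batches with ComBat-Seq. The deposited values are therefore batch-corrected expected counts, and a low value need not be the number of molecules seen. The submitters' processing notes name bcl2fastq 2.20 and a human build, GRCh38. The threshold for low expression and the batch variable are not given in the sources used here. 30966 values in 448 genes were not whole and were rounded.

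A gene entered when any library reached 0.5 CPM, and genes were fitted in edgeR 4.0.16 (R 4.3.3) with TMM scaling by the quasi-likelihood test across genes, in a model of the 16 unmarked YF libraries in 5 groups, so that they share 1 estimate of spread. CPM are counts scaled to a common TMM-adjusted library size within a fit. Those of the YM and VOF libraries and of the libraries marked X came from separate scalings. A gene was called at a Benjamini-Hochberg adjusted p under 0.1 and a fold change of at least 2. Sex and age differences used an 18-library model of 6 groups (YF, YM and VOF). Errors of log2 fold changes are SE, of levels SD. On simulated counts of this comparison (11036 genes, 200 changed), edgeR called 92.5% of the changed genes and 15 others. DESeq2 1.42.0 called 91.5% and 8 others. These shares are for the simulated counts alone. The share of changed genes that is found in the measured libraries was not tested.

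The total per library sets the precision, and 3 counts per library is the limit used where a group had none; intervals are exact 95% intervals for counting error. Principal components used log2 CPM. Symbols and coordinates came from GENCODE vM21 (GRCm38; 11020 identifiers matched) and promoters from RefSeq. Plots used Python 3.11.15 and matplotlib 3.10.9.

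Genes were named by rule: the 10 largest called changes each way whose groups did not overlap with a mean of at least 10 counts, up to 5 called members of each of 41 gene lists or else its 2 most abundant, a fixed set of liver and cell cycle genes, and the 5 largest called differences each way by time, sex and age. Hspa5 and Cux2, and genes named without values, fall outside the rule and were chosen after their values were seen. The members, lists and tests were chosen with earlier results of these data known. Some genes that the rule chose are not reported here. Alternatives tried are given in the closing section. Of the 16 libraries, 4 are of normal liver; they enter the shared estimate of spread and no comparison. The remaining libraries of the series were not used here, apart from the YM and VOF libraries named above.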

Additional observations from a re-analysis of the deposited data

Results flagged for a closer look

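The PH effect differed between 96 h and 52 h, by the test of the difference itself, for several named genes. Larger at 96 h on the log2 scale were Kifc1 (7.38, SE 1.65, with no count in sham at 96 h, so that its size has no bound), Syk (3.57), Pclaf (3.43), Alox5ap (2.54), the pseudogene Gm11212 (2.38), Saa4 (2.03), the long noncoding RNA 1810008I18Rik (1.69) and Hmox1 (1.56). Smaller at 96 h were Tk1 (-2.12), Gm10282 (-2.06), Saal1 (-2.00) and Suv39h1 (-1.71). Their adjusted p in edgeR's quasi-likelihood test ran from 0.0292 to 0.0994.

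The PH effect differed between YF and VOF at 96 h for 10 named genes. Larger in YF were Gm38070 (7.58), F830115B05Rik (4.79), Kdm1a (2.63), 1810008I18Rik (2.48) and Col1a2 (2.40), and smaller in YF were Cdca2 (-8.25), Ntrk2 (-6.57), Cyp3a11 (-2.45), Etnppl (-1.99) and Tex30 (-1.94). The value for Cdca2 has no upper bound in size, since the gene had no count in the 3 VOF sham libraries. Gm38070 was at 9.41, 6.42 and 6.89 CPM in PH of YF, where sham had 3 counts in all, and at 0, 2.09 and 0 CPM in PH and 17.2, 15.9 and 21.4 CPM in sham of VOF.

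In data outside the comparison, the sham libraries marked X held Kifc1 at 11.4 and 9.19 CPM, whereas the 3 sham libraries used had no count. The labels do not say what X marks.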

How the results depend on the processing

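Against 280 genes called higher and 89 lower, DESeq2 called 140 and 59, a fit of the 6 libraries alone 184 higher, a mix covariate in these 6 libraries 112 and 45, the mix 4 libraries alone (an alternative chosen after seeing the data) 166 and 44, and the addition of the sham libraries marked X 502 and 185. Leaving out 1 of the 6 libraries gave 81 to 373 higher and 31 to 122 lower. RLE scaling (283 and 87), a stricter filter, no filter (which kept the same genes) and an adjusted p under 0.05 without a fold limit (246 and 89) gave counts within 1.5 times. The cause of these moves was not tested, except that fewer libraries entered some fits. Same-numbered PH and sham libraries did not deviate together (correlations of -0.197, -0.205 and -0.479 over 7194 genes). No library correlated best with its own number. These are deviations from group means of batch-corrected values, so they cannot show whether the numbers pair the samples. A replicate block gave 94 higher and 33 lower, and 0 differences between 96 h and 52 h.

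For the 52 differences between 96 h and 52 h, an adjusted p under 0.05 left 1, RLE scaling 32, added X libraries gave 490, and leave-one-out 0 to 115. For the 0 differences between YF and YM, DESeq2 gave 17, added X libraries 141 and leave-one-out 0 to 7. For the 21 between YF and VOF, an adjusted p under 0.05 left 6, DESeq2 gave 78, added X libraries 350 and leave-one-out 13 to 74.

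Of 85 called genes that the naming rule chose, 36 stayed called without sham 1, 52 without PH 1, 64 in DESeq2 and 85 under RLE scaling, and none changed sign under any alternative. Named genes that were not called and changed sign (values that round to 0 set aside) were Dnase1l3 (-0.01 with the mix covariate, -0.08 with X libraries, -0.07 without PH 1, -0.01 without PH 2), Sqle (-0.04 with the mix covariate, -0.06 with the block, -0.09 with X libraries, -0.25 without PH 2, -0.07 without sham 2), Uqcrq (0.07 in mix 4, 0.07 without sham 1, 0.06 without PH 3, 0.01 without sham 3), Hbb-bs (-0.06 in mix 4, -0.02 without PH 1, -0.04 without sham 1), Xist (0.16 without PH 3, 0.06 without sham 2), Igfbp1 (0.33 without sham 2), Trp53inp1 (0.17 without sham 2), Acaa2 (-0.07 without sham 2), Ighm (-0.11 without PH 1), Rpl4 (0.01 without PH 2) and Hba-a1 (0.01 without PH 2). Leaving out 1 library gave ranges of -0.07 to 0.24 for Acaa2, -0.07 to 0.14 for Dnase1l3, -0.43 to 0.01 for Hba-a1, -0.04 to 0.86 for Hbb-bs, -1.27 to 0.33 for Igfbp1, -0.11 to 1.12 for Ighm, -0.15 to 0.01 for Rpl4, -0.25 to 0.21 for Sqle, -0.38 to 0.17 for Trp53inp1 and -0.59 to 0.16 for Xist. The 465547 counts of sham 2 limit what its zeros can show.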
